A study of Mus musculus with 2 samples.

Results

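Acta2, Tagln, Rgs5, Mcam, Myh11, Notch3, Cspg4, and Nes are 8 genes widely used to recognize mural cells, the pericytes and smooth muscle cells that wrap blood vessels. They were taken as a list of names, and all 8 were found among the 32288 features counted. The cells were periosteal cells peeled from femurs and tibias of C57BL6 mice, labeled WT and 4 weeks old. They were sorted as CD45-CD31-Ter119- and profiled by droplet scRNA-Seq (10x). There was 1 condition, with 2 libraries labeled as replicates and called library 1 and library 2 here. How many mice went into a library is not given in the sources used here, so p-values measure the spread between these libraries, which may be technical.

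Mural cells hold capillaries and small arteries from outside and set their width. Smooth muscle cells do so with a contractile apparatus of smooth muscle actin (Acta2), its calponin-related companion transgelin (Tagln), and smooth muscle myosin heavy chain (Myh11), whereas capillary pericytes are commonly recognized by Rgs5, a brake on G protein signaling, and by the NG2 proteoglycan (Cspg4). Notch3 is the receptor through which vessel-lining cells instruct mural cells, Mcam (CD146) is an adhesion molecule of the vessel wall, and Nes (nestin) is an intermediate filament protein. In bone, Nes, Mcam, and Cspg4 have also been used to mark perivascular stem and progenitor cells, so their reach beyond mural cells was of interest here.

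Barcodes with at least 500 genes, at least 500 UMIs (unique molecular identifiers, 1 per captured transcript), and at most 10% mitochondrial UMIs were kept, 6276 of 9932 in library 1 and 2893 of 3659 in library 2, with a median of 8164 and 6279 UMIs per cell. Of the kept cells, 7 barcode sequences occurred in both libraries. The libraries are labeled alike as WT, but reporter sequences counted beside the genes set them apart. EGFP had 0 UMIs in library 1 and 6837 UMIs in 170 cells of library 2, of which 100 were chondrocyte-like and 2 mural-like. In library 2 this goes against the WT label. The reporter tdTomato had 1482 and 4627 UMIs in 1027 and 846 cells, among them 14.2% and 19.8% of B cell-like cells. These UMIs go against the WT label in both libraries. Genotype and library can therefore not be told apart in any difference between the libraries, and each level is given by library. The sort was meant to leave out blood cells, but most kept cells carried hematopoietic markers, B cell-like cells alone numbering 2662 and 1335. The libraries also differed in makeup, with 20 and 292 P-SSC-like (periosteal skeletal stem cell-like), 65 and 10 Lepr+ stromal-like, and 2 and 95 tenocyte-like cells. Free RNA was low for these genes, since 8 of 2662 and 10 of 1335 B cell-like cells had a UMI of any of the 8, at median depths of 3839.5 and 4004 UMIs. By contrast, Col1a1, the main collagen of bone, had a UMI in 24.3% and 14.6% of the same cells.

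Mural-like cells were few, 4 in library 1 and 19 in library 2. The 8 genes and their relatives had been left out of the clustering and of the marker lists, and the cells then fell into a single cluster of 31 cells together with endothelial-like cells. They were separated cell by cell with 12 other mural markers and 8 endothelial markers. Each mural-like cell had 4 to 9 of the mural markers and at most 2 of the endothelial ones. The ATP-sensitive potassium channel subunits Kcnj8 and Abcc9, together with Higd1b and Gm13889, were each detected in 20 of 23 cells, and the mitochondrial subunits Ndufa4l2 and Cox4i2 in 22 and 19. The filament protein Des was found in 15, and of the markers of a more muscular wall, Cnn1 was found in 3 and Lmod1 in 2. Of the rest of the list, Vtn was found in 10 cells, Trpc6 in 3, and Itga8 in 1. These 12 markers also selected the cells, so their detection does not test the name. Pecam1, Cdh5, Kdr, Flt1, Cldn5, and Tie1 had no UMI in the 23 cells, whereas Emcn was found in 7 and Egfl7 in 1. The 8 endothelial-like cells, 4 in each library, remained despite the CD31 gate. Together the mural-like cells held 23750 UMIs in library 1 and 126621 in library 2, so a gene with 0 UMIs there may still have reached 126 CPM (UMIs of a gene per 1000000 UMIs of the cells) in library 1 and 23.7 CPM in library 2, taking 3 UMIs as the limit that a count of 0 allows.

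**Figure D1:**
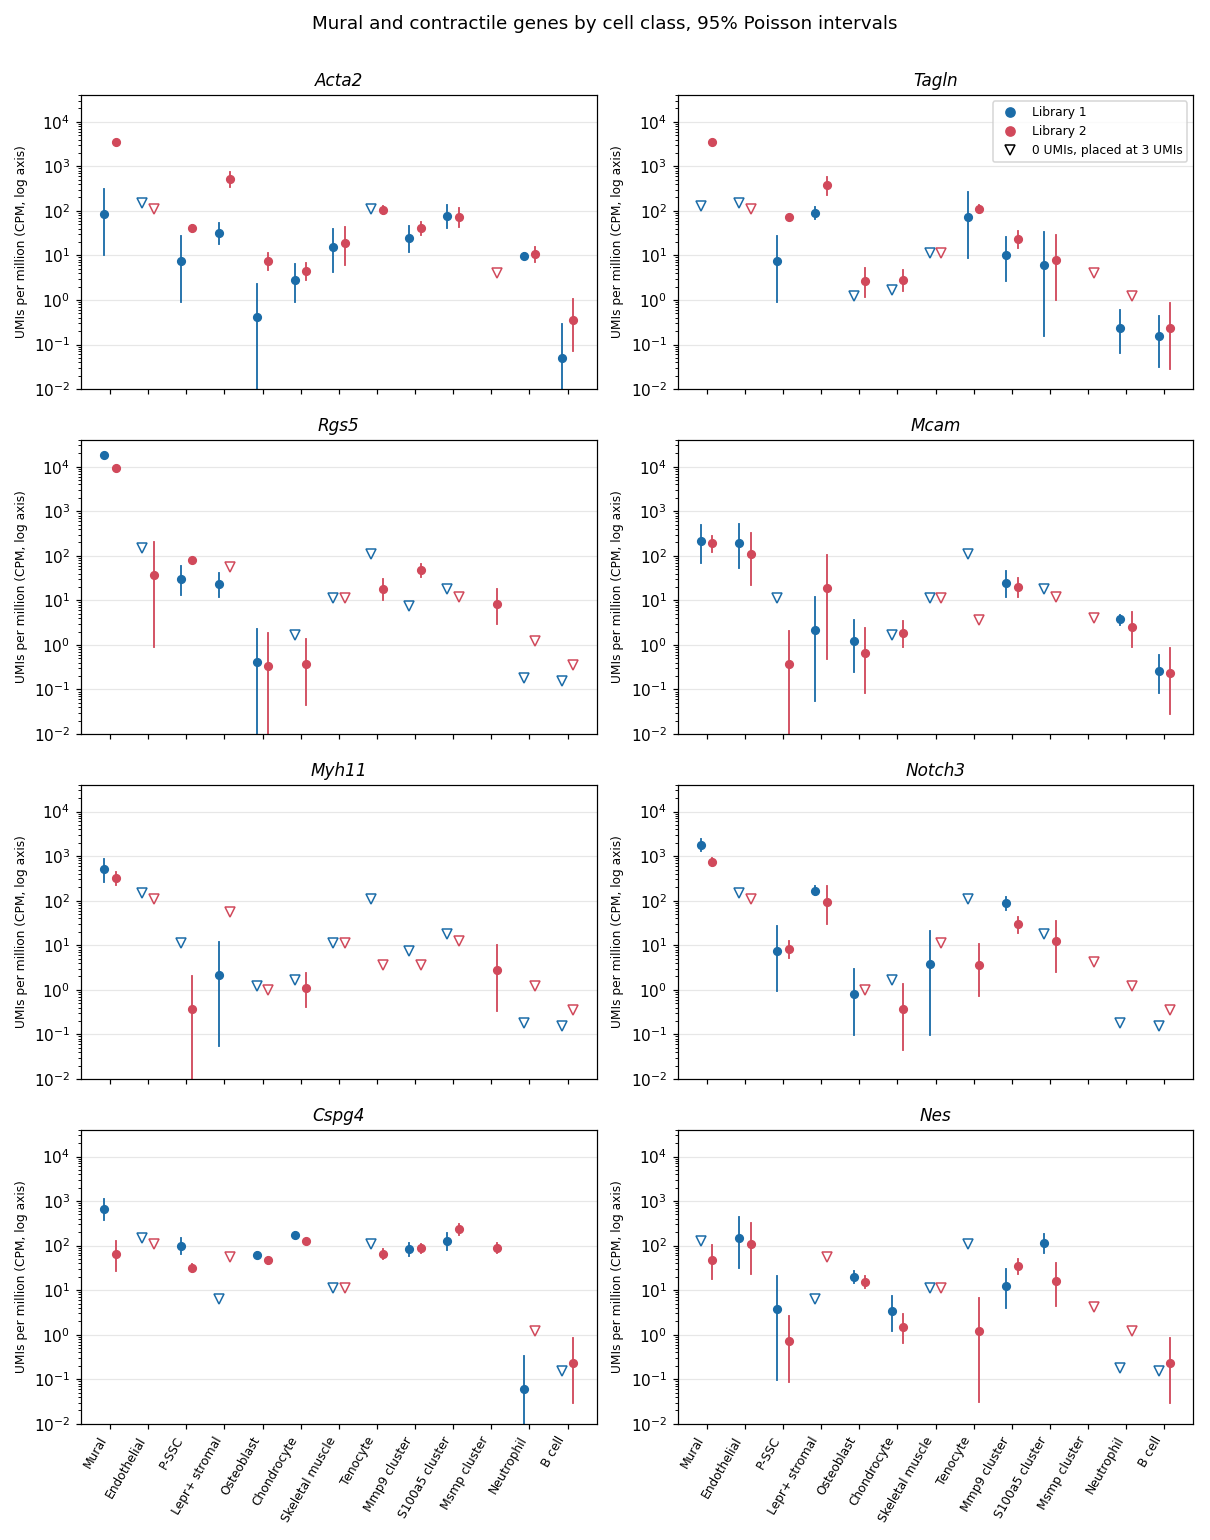
Level (CPM, log axis) of each of the 8 genes in each cell class of library 1 (blue) and library 2 (red), with exact 95% Poisson intervals, and open triangles at 3 UMIs where the count was 0. Rgs5, Notch3, Myh11, and Mcam are at their highest in mural-like cells of both libraries, Acta2 and Tagln in library 2, whereas Cspg4 in library 2 is at 126 CPM in chondrocyte-like cells and 63.2 CPM in mural-like cells.

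Of the 8 genes, 7 were higher in mural-like cells than in the mean of the other stromal classes, the exception being Nes. Endothelial-like cells were left out of this mean and are set against mural-like cells on their own below. As background, 4.52% of the 7707 genes tested were called higher and 0.753% lower. Levels below are UMIs summed over the cells of a class and library, as CPM of those cells. Differences are measured log2 differences with 10 CPM added, 1 for each library, and adjusted p-values come from edgeR's quasi-likelihood test on the sums of both libraries, 18 in all. The fold changes fitted by edgeR are larger, because several classes held no UMI of a gene, and are not measured ratios. A mean of classes is a mean of log levels, so classes with no UMI of a gene pull it down. Intervals cover counting error only.

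Rgs5 was the most abundant of the 8 in mural-like cells of both libraries. This gene (ENSMUSG00000026678, chromosome 1, 169655501 to 169695813, plus strand, mm10) reached 18270 CPM (95% Poisson interval 16590 to 20080) and 9588 CPM (9056 to 10140) in libraries 1 and 2. It was detected in all 4 and all 19 mural-like cells, with 77 to 190 UMIs per cell in library 1 and 4 to 161, median 52, in library 2. Mural-like cells held 95.2% of all Rgs5 UMIs in library 1 and 80.8% in library 2, although they were 4 of 6276 and 19 of 2893 cells. The log2 difference from the other classes was 10.29 and 9.08 (adjusted p = 3.42e-10). No Rgs5 UMI was found in neutrophil-like, B cell-like, or skeletal muscle-like cells of either library.

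Notch3 (ENSMUSG00000038146, chromosome 17, 32120820 to 32166852, minus strand) was also found in nearly all mural-like cells, with 1768 CPM (1275 to 2390) and 742 CPM (600 to 909) in the 2 libraries. All 4 mural-like cells of library 1 had 7 to 15 UMIs, and 17 of 19 in library 2 had up to 21. The log2 difference was 6.21 and 5.17 (adjusted p = 1.65e-08). Only 23.6% of its UMIs in library 1 and 59.1% in library 2 were in mural-like cells, and the others lay mostly in Lepr+ stromal-like cells in library 1 (79 of 178 UMIs) and in several classes in library 2.

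Myh11, the motor protein of smooth muscle (ENSMUSG00000018830, chromosome 16, 14194535 to 14291372, minus strand), was scarce but stayed in mural-like cells. It had 12 UMIs in 3 of 4 cells of library 1 and 40 UMIs in 11 of 19 cells of library 2, or 505 CPM (261 to 883) and 316 CPM (226 to 430). These were 12 of 13 and 40 of 50 Myh11 UMIs in all kept cells, a share whose interval (64.0% to 99.8% and 66.3% to 90.0%) overlaps that of Rgs5. The log2 difference was 5.65 and 5.00 (adjusted p = 1.51e-06). Myh11 passed the filter on low counts through its mural-like sums alone, the other classes being at or near 0. It was thus tested only because it was high there, and the p-value is no separate evidence.

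Mcam (ENSMUSG00000032135, chromosome 9, 44134469 to 44142727, plus strand) was found at 1 or 2 UMIs in each of the 4 mural-like cells of library 1 and at up to 5 UMIs in 13 of 19 cells of library 2. Its levels of 211 CPM (68.4 to 491) and 190 CPM (121 to 282) had overlapping intervals. The log2 difference was 4.14 and 3.82 (adjusted p = 7.96e-06). Mural-like cells nonetheless held only 5.26% and 35.3% of Mcam UMIs, since 75.8% of the UMIs in library 1 were in hematopoietic cells.

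**Figure D2:**
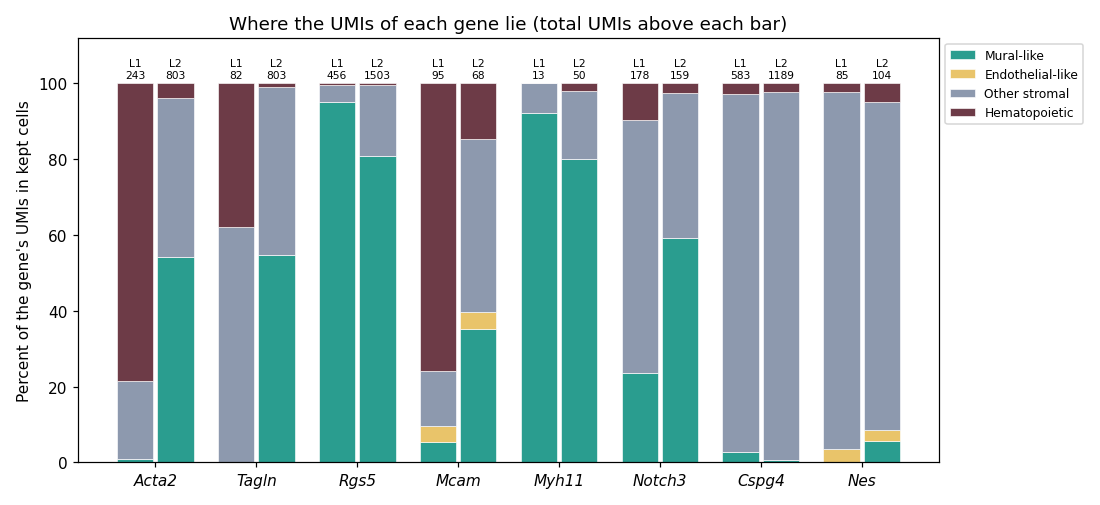
Percent of the UMIs of each gene that lay in mural-like, endothelial-like, other stromal, and hematopoietic cells of library 1 (L1) and library 2 (L2), with the total number of UMIs above each bar. More than 80% of Rgs5 UMIs lay in mural-like cells in both libraries, whereas 94.5% and 97.1% of Cspg4 UMIs lay in other stromal cells.

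Acta2 and Tagln differed in level between the mural-like cells of the 2 libraries. Acta2 (ENSMUSG00000035783, chromosome 19, 34241090 to 34255590, minus strand) had 2 UMIs in the 4 mural-like cells of library 1, or 84.2 CPM (10.2 to 304), and 436 UMIs in the 19 cells of library 2, or 3443 CPM (3128 to 3782). Tagln (ENSMUSG00000032085, chromosome 9, 45929619 to 45936058, minus strand) had 0 UMIs in library 1, where 3 UMIs would be 126 CPM, and 439 UMIs or 3467 CPM (3150 to 3807) in library 2. The counting intervals of the libraries did not overlap for either gene. These intervals do not cover the spread between cells, and library 1 had only 4 mural-like cells. In library 2, 9 of 19 cells had fewer than 10 UMIs of Acta2 and Tagln together. Whether the 4 cells were of that kind by the draw of few cells was not tested. For Acta2, the log2 difference from the other classes was 1.87 in library 1 and 6.1 in library 2 (adjusted p = 3.49e-05). For Tagln, it was -0.83 in library 1 and 6.79 in library 2 (adjusted p = 1.59e-05), so a positive difference came from library 2 alone. It was lost under limma on log2(CPM + 10) (adjusted p = 0.149), and that of Acta2 was lost when mural-like cells were picked by markers alone from all stromal cells (adjusted p = 0.0633). The markers Des and Cnn1 were found in 15 and 3 of the 19 cells of library 2 and in 0 of the 4 of library 1. The part of this difference in the result was not tested.

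Within library 2 the contractile genes were spread unevenly over the mural-like cells. Acta2 ranged from 0 to 120 UMIs per cell with a median of 2, and Tagln from 0 to 121 with a median of 5. In 10 of the 19 cells Acta2 and Tagln together had at least 10 UMIs, in 6 they had 1 to 9, and in 3 they had none. All 9 cells with fewer than 10 still had at least 10 Rgs5 UMIs, as did the 4 cells of library 1. Myh11 was detected in 8 of the 10 cells rich in Acta2 and Tagln and in 3 of the other 9. In 13 cells Acta2 and Tagln were found together, and no mural-like cell had Acta2 of 2 UMIs or more without Tagln. The cell with the most Acta2, 120 UMIs, also had the fewest Rgs5 UMIs, 4.

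Over these 19 cells, the levels per UMI of Acta2 and Tagln rose together (Spearman rho = 0.72), and so did those of Tagln and Myh11 (rho = 0.62) and of Acta2 and Myh11 (rho = 0.46). Rgs5 ran weakly opposite to Acta2 (rho = -0.30), Tagln (rho = -0.34), and Myh11 (rho = -0.29), and Notch3 showed next to no relation to Acta2 (rho = -0.01). These are descriptions over cells of a single library that share its depth, and a value per UMI of a cell falls when another abundant gene rises.

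**Figure D3:**
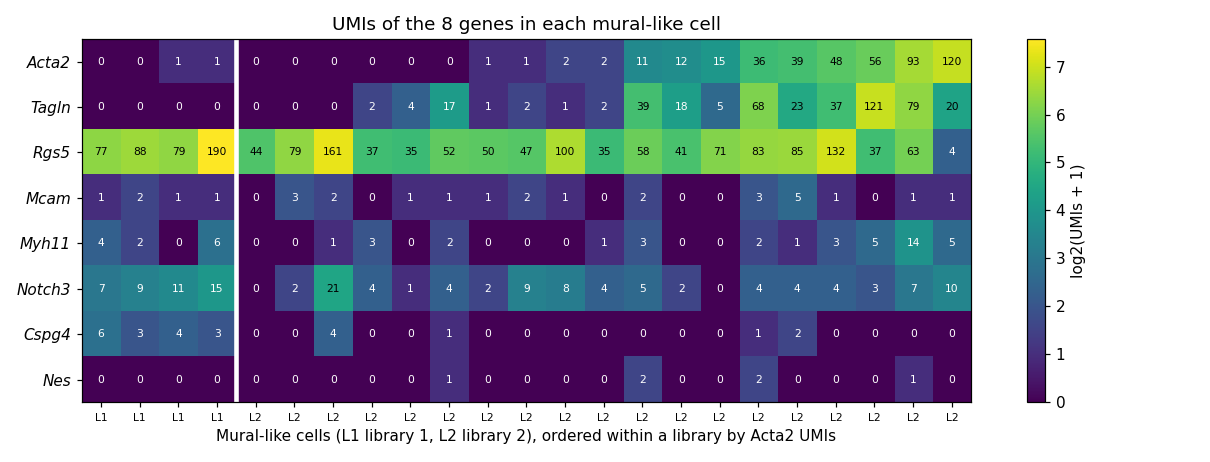
UMIs of the 8 genes (rows) in each of the 4 mural-like cells of library 1 and the 19 of library 2 (columns, ordered within a library by Acta2), colored by log2(UMIs + 1). Rgs5 is present in every column, whereas Acta2 and Tagln go from 0 to 120 and 121 UMIs and are at 0 or 1 in library 1.

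The DNA just upstream of these genes is shown because contractile genes of smooth muscle are known targets of serum response factor, which binds the CArG box (CC, 6 bases of A or T, and GG). RefSeq promoter windows (GRCm38.p6, 250 bases upstream of the annotated start, both strands searched) were found for 6 of the 8 genes, and Tagln and Myh11 had no entry. None of the 6 held an exact CArG box, which 1.47% of all 32851 windows did. With 1 of the 6 central bases allowed to be C or G, Acta2 alone among the 6 held the motif, at 2 places, against 8.59% of all windows. Of 13 contractile genes with a window, Myl9 and Vcl held the exact motif. The motif is in capitals below. The Acta2 sites lie at chr19:34255438-34255467 and chr19:34255388-34255417 (minus strand), 84 to 75 and 34 to 25 bases upstream of the RefSeq start, within bases that GENCODE counts as the first exon of a longer transcript. The Myl9 site lies at chr2:156775293-156775322 and the Vcl site at chr14:20929161-20929190 (both plus strand). The Rgs5 window, chr1:169655251-169655500 (plus strand), is shown whole as that of the gene found in every mural-like cell.
Acta2, distal site: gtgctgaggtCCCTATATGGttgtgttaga
Acta2, proximal site: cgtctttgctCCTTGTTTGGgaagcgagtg
Myl9: caagcagaggCCTAATAAGGccgggctggc
Vcl: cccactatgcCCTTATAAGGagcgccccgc
Rgs5: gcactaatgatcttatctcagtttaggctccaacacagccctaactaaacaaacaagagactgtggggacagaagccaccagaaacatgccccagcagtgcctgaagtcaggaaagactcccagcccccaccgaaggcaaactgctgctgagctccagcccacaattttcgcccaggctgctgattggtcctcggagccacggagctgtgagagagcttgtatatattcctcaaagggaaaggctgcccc
A match of letters is a description of the window only, and no binding was measured.

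Cspg4, the NG2 proteoglycan (ENSMUSG00000032911, chromosome 9, 56865033 to 56899870, plus strand), was found in every mural-like cell of library 1 at 3 to 6 UMIs but in only 4 of 19 in library 2, giving 674 CPM (385 to 1094) and 63.2 CPM (27.3 to 125). It was higher in mural-like cells than in the mean of the other classes (adjusted p = 0.00577), with a log2 difference of 3.59 in library 1 and 0.55 in library 2. This call was lost at clustering resolution 0.4 (adjusted p = 0.165). Mural-like cells held 2.74% and 0.673% of its UMIs. Chondrocyte-like cells held the most Cspg4 UMIs of any class, 316 of 583 and 674 of 1189, at 177 CPM (158 to 198) and 126 CPM (116 to 136). Its level was 127 CPM (78.6 to 194) and 231 CPM (175 to 299) in a cluster led by S100a5, Stoml3, Gng13, and Omp, which took no name from the marker lists. Within chondrocyte-like cells, Cspg4 was found in 27 of 27 and 117 of 122 cells of the cluster led by Cnmd and Matn3. It was found in only 16 of 67 and 16 of 74 cells of the cluster led by Col10a1, the collagen of hypertrophic cartilage. The first of these clusters was also far deeper, with a median of 30950 UMIs per cell against 6198, and its CPM was 285 and 158 against 69.7 and 70.6. With every cell thinned to 1000 UMIs, 24.9% and 15.9% of the cells of the first cluster and 5.76% and 5.44% of those of the second had a Cspg4 UMI. Cspg4 was also detected in 64.8% and 46.5% of osteoblast-like cells (62.8 and 47.1 CPM) and in 40.0% and 19.2% of P-SSC-like cells (98.8 and 32.0 CPM). It had no UMI in Lepr+ stromal-like or skeletal muscle-like cells, but 3 UMIs would be 6.39 and 55.9 CPM in the former, so that in library 2 a level near that of mural-like cells may have gone undetected.

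Nes (ENSMUSG00000004891, chromosome 3, 87971078 to 87980451, plus strand) was the 1 member without a call in mural-like cells. It had 0 UMIs in the 4 mural-like cells of library 1 (3 UMIs would be 126 CPM) and 6 UMIs in 4 of 19 cells of library 2, or 47.4 CPM (17.4 to 103). The log2 difference was -1.04 and 1.78 and did not pass the test (adjusted p = 0.129). Endothelial-like cells had 149 and 109 CPM from 3 UMIs in each library. Osteoblast-like cells held more Nes UMIs than any other class, 49 in 20 of 88 cells and 46 in 20 of 170 cells, at a low level of 19.9 CPM (14.7 to 26.2) and 15.5 CPM (11.3 to 20.6). A single cell held 10 of the 49 UMIs, and another held 17 of the 46. The S100a5 cluster had 115 CPM (69.1 to 179) in 4 of 25 cells of library 1 and 16.2 CPM (4.42 to 41.5) in 3 of 43 cells of library 2. No Nes UMI was found in Lepr+ stromal-like cells.

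Set against each other class in turn, mural-like cells were higher in 36 of 64 tests of a gene in a class and lower in none. Beside the classes named so far, these included a Mmp9 cluster, led by Mmp9 and by histone and cell division genes, which took no name from the marker lists. Over all genes, 5.14% were called higher and 3.78% lower against chondrocyte-like cells, 0.402% and 0.337% against endothelial-like cells, and 4.67% and 3.87% against osteoblast-like cells. Of the genes tested against Lepr+ stromal-like cells, 0.558% were higher and 0.623% lower. The shares were 1.23% and 1.09% against P-SSC-like cells, 9.87% and 9.29% against skeletal muscle-like cells, 1.31% and 1.22% against the Mmp9 cluster, and 1.38% and 1.58% against the S100a5 cluster. Rgs5 was higher in mural-like cells than in all 8 classes. Myh11 was so for 7, the exception being endothelial-like cells (adjusted p = 0.0696), and Notch3 for 7, the exception being Lepr+ stromal-like cells (adjusted p = 0.143). Mcam passed for 5, and did not for endothelial-like cells, Lepr+ stromal-like cells, or the Mmp9 cluster (adjusted p = 0.808, 0.0624, and 0.160). Tagln passed for 4 (chondrocyte-like, osteoblast-like, and skeletal muscle-like cells and the S100a5 cluster) and Acta2 for the first 3 of these. Cspg4 passed for skeletal muscle-like cells and for Lepr+ stromal-like ones, and Nes for no class.

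The question of which genes reach other stromal types was asked by setting each other class against the mean of the remaining ones. Mural-like and endothelial-like cells were left out of that mean. Of 64 tests, 16 were called higher and 2 lower. Where a class had 0 UMIs of a gene in both libraries, the standard error was too large for a lower call. For Cspg4 in Lepr+ stromal-like cells, the fitted log2 fold change was -7.91 with a standard error of 11178. The standard error could also be large where a class had UMIs in library 2 only, as for Tagln in chondrocyte-like cells (-1.94, standard error 673). These standard errors were worked out from the fold change and its F statistic. The number of lower calls is therefore not read as a result. Over all genes, the share called lower was 0.519% in Lepr+ stromal-like cells, 1.35% in P-SSC-like cells, 0.117% in the Mmp9 cluster, 0.337% in the S100a5 cluster, and 2.69% in endothelial-like cells, and the share called higher stands beside each class below. The calls of Mcam and Nes in endothelial-like cells and of Notch3 in Lepr+ stromal-like cells also passed under limma on log2(CPM + 10), an added check in which classes with few UMIs lie close together. The other 13 did not.

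Notch3 reached Lepr+ stromal-like cells under all 18 alternatives tried. In this class, led by Adipoq, Hp, Cxcl12, and Kitl, it was found in 37 of 65 cells of library 1 at 168 CPM (133 to 210) and in 3 of 10 cells of library 2 at 93.2 CPM (30.3 to 218). These levels were 3.37 and 2.69 higher on the log2 scale than the mean of the remaining classes (adjusted p = 1.52e-05), where 6.72% of all genes were called higher in Lepr+ stromal-like cells. With each cell thinned to 1000 UMIs, the share of cells with a Notch3 UMI was 15.6% and 16.4%, against 84.4% and 49.1% of mural-like cells. Notch3 was also found in 15 of 39 and 15 of 77 cells of the Mmp9 cluster, at 87.8 and 29.4 CPM (adjusted p = 0.000457, background 3.56%). It was called lower in chondrocyte-like cells, with 0 and 2 UMIs, and in osteoblast-like cells, with 2 and 0 UMIs (adjusted p = 0.0108 and 0.0300, background 2.13% and 2.09%). The lower calls were lost under 6 and 9 of 18 alternatives.

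Tagln reached Lepr+ stromal-like cells too. It was found in 20 of 65 cells of library 1 at 89.4 CPM (64.5 to 121), of which 17 had no Acta2 and 13 also had Notch3. In library 2 it was found in 2 of 10 cells, and 19 of its 20 UMIs came from 1 cell that also held all 28 Acta2 UMIs of the class. The calls of Tagln and Acta2 in this class (adjusted p = 0.00435 and 0.0236) were lost without that cell (adjusted p = 0.0702 and 1.00).

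Tenocyte-like cells, recognized by Tnmd, Scx, and Thbs4, could be read in library 2 only and were in no test. Acta2 was found in 28 of 95 of them at 107 CPM (86.3 to 132) and Tagln in 15 at 113 CPM (91.6 to 138), with 8 cells having both, and the levels without the highest cell were 86.7 and 84.8 CPM. Rgs5 was found in 4 of these cells, whereas Mcam and Myh11 had no UMI. In P-SSC-like cells of library 2, Acta2 was found in 20 of 292 cells and Tagln in 14, at 41.1 and 71.7 CPM, but 139 of the 197 Tagln UMIs came from 1 cell, and the level without it was 21.3 CPM.

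Rgs5 was also found in some P-SSC-like cells. In library 2 it had 219 UMIs in 12 of 292 cells, or 79.7 CPM (69.5 to 91.0), and in library 1 it had 8 UMIs in 1 of 20 cells, or 30.4 CPM (13.1 to 59.9), a cell that also had Notch3. The class was called higher than the remaining ones (adjusted p = 7.64e-05, background 9.68%), with a log2 difference of 1.71 and 2.73. All of these cells lay in the P-SSC-like cluster led by Pi16, Ccl2, and Mfap5, with 16 and 168 cells, and none in the second one, led by Mfap4, Eln, and Apod, with 4 and 124. Of the 219 UMIs, 204 came from 5 cells with 11 to 91 UMIs each. These 5 cells had no Acta2, Tagln, Mcam, Myh11, or Notch3 UMI, all 5 had Cspg4, and they had 0 or 1 of the 12 mural markers at depths of 8720 to 30306 UMIs. In Lepr+ stromal-like cells of library 1, Rgs5 had 11 UMIs in 6 of 65 cells, or 23.4 CPM (11.7 to 41.9), and 5 of these 6 also had Notch3. It had 0 UMIs in that class in library 2, where 3 UMIs would be 55.9 CPM, and was not called there (adjusted p = 0.121).

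Outside mural-like cells, Rgs5 was found in 10 and 28 cells and Acta2 or Tagln in 213 and 146, and 2 and 3 cells had both. Among cells with many UMIs, a total of 6 cells had 10 or more Rgs5 UMIs, and none of them had Acta2 or Tagln. A total of 12 had 10 or more UMIs of Acta2 or Tagln, and none of them had Rgs5 or Myh11, though 9 had both Acta2 and Tagln. These 12 were 5 tenocyte-like, 3 P-SSC-like, 1 Lepr+ stromal-like, and 1 osteoblast-like cell and 1 cell each of the Mmp9 and S100a5 clusters, and 11 came from library 2. The sixth Rgs5 cell, in the Mmp9 cluster, had 34 Rgs5, 3 Notch3, and 4 Cspg4 UMIs and 5 mural markers among only 1820 UMIs, and it held most of the 40 Rgs5 UMIs of that cluster. These are few cells, and no exclusion was tested.

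**Figure D4:**
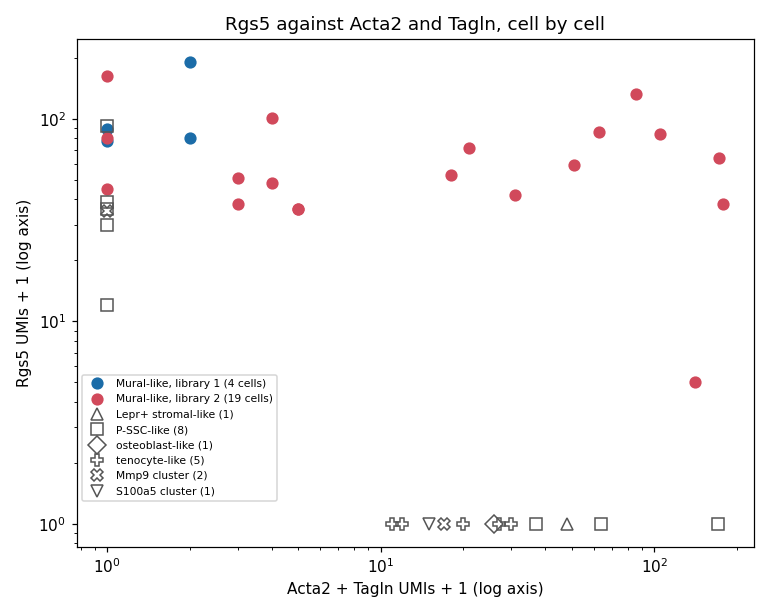
Rgs5 UMIs against Acta2 plus Tagln UMIs of single cells, each with 1 added (log axes), for the 4 and 19 mural-like cells (filled) and for other cells with at least 10 UMIs of 1 of these genes (open symbols). Of the mural-like cells, all 4 and 18 of 19 have at least 10 Rgs5 UMIs over the whole range of Acta2 plus Tagln, whereas the 6 other cells rich in Rgs5 sit at the left edge and the 12 rich in Acta2 or Tagln at the bottom.

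Mcam was also present in endothelial-like cells. In the 4 endothelial-like cells of each library it had 4 and 3 UMIs in 2 cells each, or 198 CPM (54.0 to 508) and 109 CPM (22.5 to 319), with counting intervals that overlap those of mural-like cells. Against the remaining classes the log2 difference was 4.06 and 3.07 (adjusted p = 0.00135, background 3.85%). Nes was called in the same cells (log2 difference 2.95 and 2.83, adjusted p = 0.0190), although this call was lost without a filter on low counts (adjusted p = 0.0583). Acta2, Tagln, Myh11, Notch3, and Cspg4 had no UMI in endothelial-like cells, where 3 UMIs would be 149 and 109 CPM. In the Mmp9 cluster Mcam had 10 and 17 UMIs in 3 and 7 cells (adjusted p = 0.00168), of which 2 and 8 UMIs lay in 2 and 3 cells with at least 5 mural or 5 endothelial markers, and in P-SSC-like cells it had 0 and 1 UMI. Cspg4 was called in chondrocyte-like (adjusted p = 0.000679, background 5.62%), osteoblast-like (adjusted p = 0.0345, background 5.85%), Mmp9 (adjusted p = 0.0323), and S100a5 cells (adjusted p = 0.00164, background 5.8%). In this order, its measured log2 differences were 2.01 and 1.68, 0.42 and 0.23, 0.83 and 1.14, and 1.48 and 2.65. The calls were lost under 1 of 18, 6 of 18, 4 of 13, and 3 of 16 alternatives. Osteoblast-like cells, at 62.8 and 47.1 CPM, were below chondrocyte-like (177 and 126), Mmp9 (82.8 and 88.1), and S100a5 cells (127 and 231) in both libraries. P-SSC-like cells were above them in library 1 (98.8 CPM) and below in library 2 (32.0 CPM). The other classes of the mean had no Cspg4 UMI and pull it down. The osteoblast-like call is therefore relative to that mean and does not show a high level among stromal classes. Nes was called in osteoblast-like cells (adjusted p = 0.0156), the Mmp9 cluster (adjusted p = 0.0300), and the S100a5 cluster (adjusted p = 0.00128). The measured log2 differences of Nes were 0.63 and 0.71, 0.16 and 1.63, and 3.04 and 0.76. In the Mmp9 cluster its level was 12.55 CPM in 4 of 39 cells of library 1 and 34.06 CPM in 19 of 77 cells of library 2. Rgs5 was called in the Mmp9 cluster (adjusted p = 0.0106), where it had 40 UMIs in library 2 and 0 in library 1. Without the 6 stromal cells rich in mural or endothelial markers, 5 of them in the Mmp9 cluster, this call was lost (adjusted p = 0.559), and those of Mcam (adjusted p = 0.0142), Notch3 (adjusted p = 0.00106), Cspg4 (adjusted p = 0.0309), and Nes (adjusted p = 0.0335) in that cluster remained. No call was made in skeletal muscle-like cells, where 14.9% of all genes were called higher and 17.2% lower, and Myh11 was called in no class.

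Relatives of the 8 genes were read from lists chosen with earlier results of these data known. Of 14 contractile genes, 13 were tested and 8 were higher in mural-like cells, with a median fitted log2 fold change of 2.14 against -0.15 over all genes, of which 4.52% were called higher, the share to read each list's count against. They included the myosin light chain Myl9, with 211 CPM in library 1 and 2298 CPM in library 2 (adjusted p = 1.42e-06), its kinase Mylk, with 884 and 395 CPM (adjusted p = 0.000169), and the myosin phosphatase inhibitor Ppp1r14a, with 42.1 and 411 CPM (adjusted p = 0.000146). Myl9 and Ppp1r14a were thus the lower in library 1, as were Acta2 and Tagln, whereas Mylk was the higher there. Csrp1 and Synpo2 were called too, with measured log2 differences of -2.09 and -0.75 in library 1 and 3.58 and 1.63 in library 2. Cald1, Csrp2, and Vcl, also called, were positive in both. Among those not called, Smtn was at -1.79 and -1.34 and Tpm1 at -0.69 and 0.21, whereas Tpm2, Actn1, and Flna were positive in both. None of the 4 other actins tested was called (median fitted value -1.85), nor were Tagln2 (adjusted p = 0.156) or the non-muscle myosins Myh9 and Myh10 (adjusted p = 0.156 and 0.149). Measured log2 differences were 0.60 and 1.66 for Actb, -1.23 and 0.13 for Actg1, and negative in both libraries for Acta1 and Actc1. The mean of the other classes includes skeletal muscle-like cells. There Acta1, Actc1, Tpm1, Tpm2, Smtn, and Synpo2 were called higher than in the remaining classes, against 14.9% of all genes. A low value of these genes is therefore relative to a mean that holds muscle. The listed actin Actg2 did not pass the filter on low counts, and its difference was -0.21 in library 1 and 4.59 in library 2.

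Of 7 genes of receptor signaling in pericytes, 5 were tested and 4 were higher, with a median of 4.31. These were the PDGF receptor Pdgfrb (1853 and 679 CPM, adjusted p = 9.32e-06), the endothelin receptor Ednra (337 and 182 CPM, adjusted p = 4.04e-05), the angiotensin receptor Agtr1a (463 and 79.0 CPM, adjusted p = 1.19e-05), and the sphingosine phosphate receptor S1pr3 (adjusted p = 0.0318). Of 11 genes of the Notch pathway, 6 were tested and 3 were higher (median 2.80), the ligand Jag1 (211 and 284 CPM, adjusted p = 8.75e-05), the target Heyl (84.2 and 119 CPM, adjusted p = 0.000647), and the feedback gene Nrarp (adjusted p = 0.0360). Of the 2 other Notch receptors tested, Notch1 was higher (adjusted p = 0.0172) and Notch2 was not called (adjusted p = 0.987). Rgs4 was the 1 called gene of 4 tested relatives of Rgs5 (42.1 and 158 CPM, adjusted p = 0.000272). In library 1 it had 1 UMI in 1 of 4 cells. The library 1 levels of Rgs4 and Heyl are below the 126 CPM that 3 UMIs would be. Of the coactivators of serum response factor, Mrtfb alone was tested and was not called (adjusted p = 0.197).

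Some of these genes were also called in other classes. Of the 38 list genes tested, 9 were higher in Lepr+ stromal-like cells than in the remaining classes and none was lower, against 6.72% and 0.519% of all genes. Among them were Pdgfrb (718 and 541 CPM, adjusted p = 1.52e-05), Mylk (492 and 242 CPM, adjusted p = 6.64e-05), Myl9 (273 and 336 CPM, adjusted p = 0.000159), Heyl (91.6 and 93.2 CPM, adjusted p = 6.84e-05), and Ednra (97.9 and 37.3 CPM, adjusted p = 0.000338). S1pr3, Cald1, Notch1, and Rgs3 were the others. In the Mmp9 cluster Pdgfrb, Heyl, Ednra, S1pr3, and Hey1 were called higher (adjusted p = 0.000550, 0.000361, 0.0244, 0.000241, and 0.0313). Agtr1a had no UMI in Lepr+ stromal-like cells and was called instead in P-SSC-like cells (26.6 and 16.7 CPM, adjusted p = 0.000175). Rgs5 was called in P-SSC-like cells as well, and also in the Mmp9 cluster, where Agtr1a was not called (adjusted p = 0.565).

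The genes most like each member over the 18 sums of class and library, by Pearson correlation of log2(CPM + 10), also differed. Notch3 was followed most closely by Ednra (r = 0.97), Carmn (r = 0.97), and Prkar2b (r = 0.95), Rgs5 by Col18a1, Vtn, and Gm14964 (r = 0.95 to 0.96), and Myh11 by Nrip2, Gm14964, and Olfr558 (r = 0.98 to 0.99). Acta2 was closest to Tagln (r = 0.87), Rgs4 (r = 0.84), and Myl9 (r = 0.82), and Tagln to Ccl19, Gstt1, and Acta2 (r = 0.87 to 0.88). Mcam was closest to Dock6, Esam, and Cd300lg (r = 0.90 to 0.96), Cspg4 to Nab2, Ccdc47, and Fbxw8 (r = 0.85 to 0.91), and Nes to Smagp, Pkp4, and Dcbld1 (r = 0.84 to 0.86). The sums share libraries and depth, so these are descriptions without a test.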

How the data were processed

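The authors aligned and counted reads of 2 libraries with Cell Ranger 6.1.2 and deposited the counts of UMIs, not normalized, for each gene in each barcode. The submitters' processing notes name mm10, and the annotation release is not given in the sources used here. Reads shared by paralogs such as the actins can be lost in counting. Coordinates are from GENCODE M21.

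After the filters above, libraries were integrated (Seurat 5.3.0 in R 4.3.3, canonical correlation analysis, 3000 variable genes, anchors on 30 dimensions, 15 components, resolution 0.8), hematopoietic clusters removed, and the rest clustered again. The 8 genes and the listed relatives took no part. A cluster was named from at least 3 markers with a log2 fold of at least 1 in at least 20% of its cells. Rebuilt names can differ from those of the study. Mural-like cells were cells of the vascular cluster with at least 3 mural markers and more mural than endothelial ones, a rule set after the clusters were seen. A cluster of 45 cells with Ptprc in over 10% of cells was dropped. Scrublet (scanpy 1.11.5) marked 1.98% and 0.0346% of cells, and so did not work in library 2, and doublets were removed only as an alternative.

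UMIs were summed per class and library. A class had to hold 3 or more cells per library to enter the fit. The fit was made in edgeR 4.0.16 (filterByExpr, TMM, quasi-likelihood test, Benjamini-Hochberg over 7707 genes, threshold 0.05). It was tried on simulated data. There all classes but mural-like cells had the same level of a gene, so genes absent from some classes were not covered. Sums with the same number share a library and are paired by it, with a correlation of their deviations from -0.02 to 0.57 (median 0.21). Alternatives included DESeq2 1.42.0, limma 3.58.1, other clusterings, and thinning of each cell to 1000 UMIs. The members and lists were chosen with earlier results of these data known. Named genes are the 8 members, the listed relatives, markers, leading genes of clusters, and the 3 genes most like each member. Col1a1, S100a8, and the reporters were added after values were seen.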

Additional observations from a re-analysis of the deposited data

Results flagged for a closer look

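Acta2 and Mcam were found in neutrophil-like cells, which were in no comparison. Acta2 had a UMI in 129 of 1057 neutrophil-like cells of library 1 (12.2%) and 19 of 142 of library 2 (13.4%), against 1 of 2662 and 3 of 1335 B cell-like cells, and Mcam in 4.73% and 4.22%, against 5 and 2 UMIs in B cell-like cells. Over the whole class the levels were low, 9.75 and 10.7 CPM for Acta2 and 3.72 and 2.46 CPM for Mcam. For Acta2 they differed between clusters. In the cluster led by Cstdc4 and Retnlg, it was in 78 of 293 and 11 of 38 cells, at 70.5 and 108.5 CPM. It was at 14.82 and 15.15 CPM in the cluster led by Ifitm6 and Mmp8. In the deeper cluster led by Elane and Prtn3, it was at 0.92 and 0.57 CPM. Monocyte/macrophage-like cells had Acta2 in 14 of 260 and 1 of 75 cells. All Acta2-positive neutrophil-like cells had S100a8, which is on the marker list that named the class. In library 1, all 14 Acta2-positive monocyte/macrophage-like cells had S100a8 as well, so it does not set neutrophil-like cells apart there. None of the 129 or 19 Acta2-positive neutrophil-like cells had Tagln, Rgs5, or Myh11. Col1a1 had a UMI in 30.2% and 31.6% of the Acta2-positive cells and in 36.7% and 24.6% of all neutrophil-like cells. In library 1, 78.6% of all Acta2 UMIs lay in hematopoietic cells.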

How the results depend on the processing

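Of the 8 genes, the calls of Rgs5, Notch3, Myh11, and Mcam in mural-like cells passed under every alternative that gave a value, and the exceptions for Acta2, Tagln, and Cspg4 are given above. Nes passed without integration (adjusted p = 0.0304), without Scrublet doublets (0.0297), and without the unnamed clusters (0.0317). Calls of other classes were less stable. The 16 higher calls became 15 without the 6 marker-rich stromal cells (added after the data were seen), 10 at resolution 0.4, 9 with the members kept for clustering, and 3 under limma, which was added after the data were seen. The 2 lower calls became 7 with DESeq2, 1 with the members kept, with mural-like cells taken by markers alone, or without the unnamed clusters, and 0 at resolution 1.2, without Scrublet doublets, or with endothelial-like cells among the other classes. The 36 calls against single classes became 17 with mural-like cells taken by markers alone. Of all genes, 406 were called in mural-like cells, and 1018 under limma. With library as a replicate block, the counts were 7, 18, 3, 43, and 442, none moved by over 1.5 times. Within a single library there is no test, and the log2 ratio of Tagln (-0.83) and Nes (-1.04) was reversed without replicate 2, and was 6.79 and 1.78 without replicate 1. With a minimum of 10 cells, library 1 had no mural-like sum and no value was possible. Thinning moved 51 of 144 shares of cells out of their counting interval. The 4 mural-like cells of library 1 set the depth limit.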
